A study of Mus musculus with 3 samples.

Results

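The ErbB receptors and their ligands were taken from the deposited expression table by gene symbol. The 10 genes comprise 3 receptors (Egfr, Erbb2 and Erbb3) and 7 ligands (Hbegf, Areg, Btc, Ereg, Tgfa, Nrg1 and Epgn), out of 22757 named genes. All 10 were in the table. The series holds RNA-seq of 3 mouse pancreatic tumour cell lines of the HI-Panc progression model, 1 library each, labelled localized, invasive and metastatic, with HI-Panc-L, HI-Panc-I and HI-Panc-M as names of the lines. Every line carries the same transgenic p16-/- background and was grown in DMEM with 10% fetal bovine serum. All samples share a treatment text on hypoxic models, with cobalt chloride (100 ng/ml, 24 h) as the agent. The text leaves unstated which libraries, if any, were made from treated cells. By tissue label, the localized line is from body wall, the invasive from pancreatic tissue and the metastatic from liver, so stage and tissue labels do not match for the localized and invasive lines. The labels do not say whether a line is a clone or a pool of animals.

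ErbB receptors are membrane tyrosine kinases that pair up when a growth factor binds outside the cell. EGFR binds the EGF-type ligands, ERBB3 binds neuregulins but has little kinase activity of its own, and ERBB2 has no known soluble ligand and acts as a partner of the other receptors. Most ligands are made as membrane proteins and released by metalloproteases. In the mouse pancreas, EGFR and its ligand TGF-alpha are known for their part in acinar-to-ductal metaplasia, an early step of tumour formation.

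Values are FPKM, fragment numbers scaled to transcript length and to the size of the library, after subtraction of a constant of 0.1 that the table carries. A difference between libraries is given on the log2(FPKM + 1) scale, where folds of low genes come out too small, and a gene was called higher or lower at a difference of at least 1 (2-fold). Calls were counted over genes with a mean of at least 1 FPKM in the 3 libraries, 11404 in all. With 1 library per stage there is no replicate spread and no test, and overlap between groups cannot be assessed. Ratios of FPKM are given with 95% counting intervals, which rest on an estimated depth of 42240000, 38320000 and 40300000 fragments in the localized, invasive and metastatic libraries and cover counting error only. Of the 8 pancreatic ductal and epithelial markers, 5, 8 and 8 reached 1 FPKM in the localized, invasive and metastatic libraries. Hepatocyte and skeletal muscle markers reached 1 FPKM in no library, and 3 of the 5 acinar genes (Cpa1, Amy2b and Ptf1a) were listed at 0 throughout. The acinar-list gene Cela1, an elastase, had 7.24, 1.13 and 0.323 FPKM in the localized, invasive and metastatic libraries.

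Sequences just upstream of the genes are shown for a receptor and a ligand that were both low in the localized library (Egfr and Tgfa) and for the most and the least abundant of the 4 ligand genes clustered on chromosome 5 (Areg and Epgn). Each runs from 250 bases before to 50 bases after the RefSeq gene start, 5′ to 3′ on the strand of the gene (GRCm38.p6). Capitals mark matches on either strand to a set of motifs. The cAMP response element was searched as TGACGTCA. The GC box, to which Sp-family factors bind, was searched as GGGCGG. For the TATA box of the core promoter the letters were TATAAA. The Egfr window is chr11:16751953-16752252, that of Tgfa chr6:86194972-86195271, that of Areg chr5:91139349-91139648 and that of Epgn chr5:91027267-91027566, all on the plus strand.
Egfr: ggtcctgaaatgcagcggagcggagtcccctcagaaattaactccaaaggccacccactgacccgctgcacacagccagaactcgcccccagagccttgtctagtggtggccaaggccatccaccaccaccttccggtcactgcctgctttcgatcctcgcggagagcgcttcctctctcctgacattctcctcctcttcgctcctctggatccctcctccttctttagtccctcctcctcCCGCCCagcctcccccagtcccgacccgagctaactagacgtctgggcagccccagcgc
Tgfa: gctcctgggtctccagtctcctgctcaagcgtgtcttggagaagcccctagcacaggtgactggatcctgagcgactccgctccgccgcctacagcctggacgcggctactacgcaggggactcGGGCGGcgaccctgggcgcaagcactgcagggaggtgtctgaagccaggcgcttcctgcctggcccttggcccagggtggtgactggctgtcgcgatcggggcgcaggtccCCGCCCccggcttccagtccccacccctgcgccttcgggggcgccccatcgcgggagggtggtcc
Areg: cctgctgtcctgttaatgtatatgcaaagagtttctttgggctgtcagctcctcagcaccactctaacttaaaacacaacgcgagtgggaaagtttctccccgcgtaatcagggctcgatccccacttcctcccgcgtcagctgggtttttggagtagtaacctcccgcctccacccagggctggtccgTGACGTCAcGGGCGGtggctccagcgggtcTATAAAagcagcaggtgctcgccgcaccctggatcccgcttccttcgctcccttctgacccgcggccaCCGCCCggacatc
Epgn: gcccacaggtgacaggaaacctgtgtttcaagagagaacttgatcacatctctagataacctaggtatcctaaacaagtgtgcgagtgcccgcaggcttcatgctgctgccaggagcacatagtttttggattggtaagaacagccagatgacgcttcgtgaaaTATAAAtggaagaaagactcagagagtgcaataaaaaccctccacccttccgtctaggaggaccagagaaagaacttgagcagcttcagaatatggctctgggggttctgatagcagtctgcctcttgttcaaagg

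The Areg window held a cAMP response element at bases 190 to 197, a GC box at bases 199 to 204, a TATA box at bases 220 to 225 and another GC box, on the minus strand, at bases 288 to 293. The Tgfa window held GC boxes at bases 125 to 130 and 236 to 241, and the Egfr window 1 at bases 242 to 247. The Epgn window had a TATA box at bases 165 to 170. No matches overlapped each other. In the table of 32851 RefSeq promoters, 1.79% held the cAMP response element, 35.7% a GC box and 13.6% a TATA box. RefSeq windows were matched for 6 of the 10 genes, the others being Erbb2 and Btc, which had no match to these motifs. TGANTCA (AP-1) and ACGTG (the core of hypoxia response elements), found in 7.81% and 19.6% of all windows, were in none of the 6. GC content was 62.3% for Egfr, 66.0% for Erbb2, 70.7% for Tgfa, 59.3% for Areg, 60.3% for Btc and 47.3% for Epgn, against a median of 52.7% over all windows. These letters describe the windows and show no binding.

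The 3 receptors were all more abundant in the invasive and metastatic libraries than in the localized library. Their summed level was 15.7 FPKM in the localized, 39.6 FPKM in the invasive and 46.1 FPKM in the metastatic library. The sum was 2.53 times higher in the invasive than in the localized library and 2.94 times higher in the metastatic than in the localized library.

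Erbb3, the kinase-impaired receptor for neuregulins, had the largest differences of the 10 genes against the localized library. It lies on chromosome 10, 128567523 to 128589652, on the minus strand (GRCm38). Its level was 0.723 FPKM in the localized, 6.29 FPKM in the invasive and 7.86 FPKM in the metastatic library. The localized library, with about 184 estimated fragments, was far below the other 2 libraries. The ratio was 8.71 (7.45 to 10.2) for invasive over localized and 10.9 (9.33 to 12.7) for metastatic over localized, or 2.08 and 2.36 on the log2 scale. Between the metastatic and invasive libraries the ratio was only 1.25 (1.17 to 1.34).

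Egfr, the receptor of the EGF-type ligands, lies on chromosome 11, 16752203 to 16918158, on the plus strand. It had 2.77 FPKM in the localized, 8.51 FPKM in the invasive and 8.16 FPKM in the metastatic library. Invasive and metastatic libraries were thus close to each other, with a ratio of 0.959 (0.876 to 1.05) for metastatic over invasive, whose interval includes 1. With the localized library as base the ratio was 3.07 (2.72 to 3.49) in invasive and 2.95 (2.61 to 3.35) in metastatic cells, with log2 differences of 1.34 and 1.28. Egfr has 2 coding transcripts in the CCDS set, of 2943 and 10208 bases, and the table gives 1 value for the gene, so full-length and shorter receptor transcripts cannot be told apart. Its intervals were computed with the shorter length.

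Erbb2, the receptor with no known soluble ligand, lies on the same chromosome at 98412470 to 98437716, on the plus strand. Its level was 12.2 FPKM in the localized, 24.8 FPKM in the invasive and 30.1 FPKM in the metastatic library. It was the most abundant receptor in every library, although its share of the receptor sum was 77.7%, 62.6% and 65.3% in the same order. For metastatic over localized the ratio was 2.47 (2.36 to 2.59) and the log2 difference 1.24. For invasive over localized the ratio was 2.04 (1.94 to 2.14) but the log2 difference 0.97, just under the size that counts, and 1.02 with a pseudocount of 0.1. Mien1, which overlaps Erbb2 on the opposite strand, had 34.9, 48.6 and 52.7 FPKM in the localized, invasive and metastatic libraries, and the labels do not say whether the libraries were stranded.

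The order Erbb2, Egfr, Erbb3 held in all 3 libraries, but the spacing differed. Erbb2 was 16.8 times as abundant as Erbb3 per length in the localized library, 3.94 times in the invasive and 3.83 times in the metastatic library. Egfr was 3.83 times as abundant as Erbb3 in the localized library, 1.35 times in the invasive and 1.04 times in the metastatic library, where the receptors had nearly the same level. Erbb4, the other neuregulin receptor and no member of the set, was listed at 0 in all 3 libraries.

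**Figure D1:**
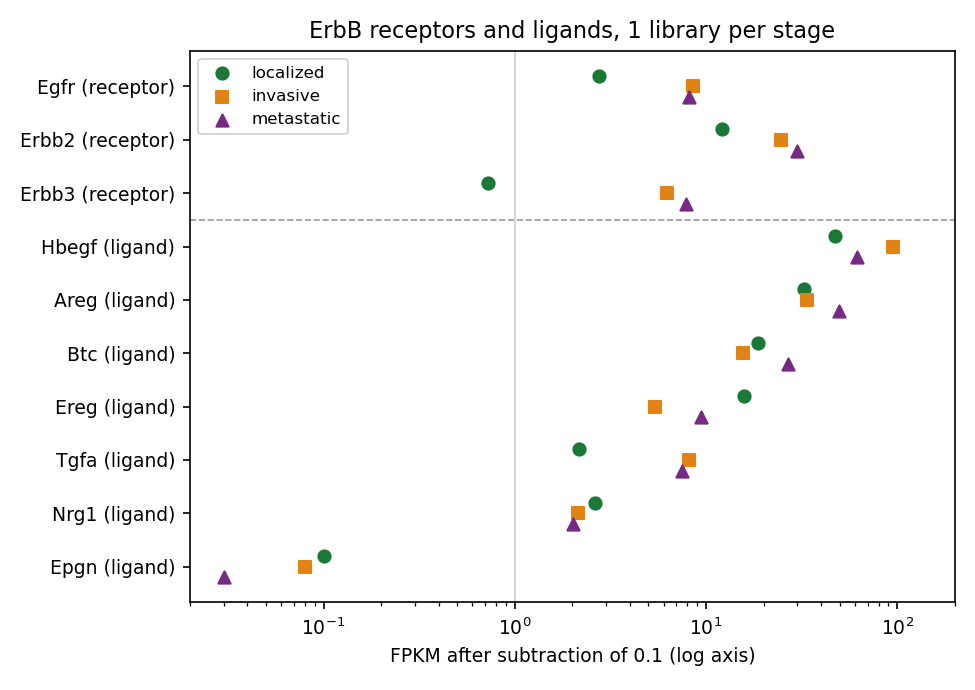
Level of each receptor (above the dashed line) and ligand (below it) in FPKM after subtraction of 0.1, on a log axis, with 1 point per library: circles localized, squares invasive, triangles metastatic; the grey line marks 1 FPKM. Receptors, Tgfa, Hbegf and, by a small margin, Areg are lowest in the localized library. Ereg and, by less, Nrg1 are highest there, and Epgn stays near 0.1 FPKM or below.

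The ligands, unlike the receptors, did not share a direction. Over the 6 that passed the filter, 2 were called higher and 1 lower in the invasive than in the localized library, and 1 was higher and 0 lower in the metastatic than in the localized library. In the invasive against the localized library these are 33.3% and 16.7% of the 6, against 8.78% and 6.07% of all genes counted. In the metastatic against the localized library they are 16.7% and 0%, against 9.08% and 7.29%. The summed level of all 7 was 119 FPKM in the localized, 160.5 FPKM in the invasive and 157 FPKM in the metastatic library, so it differed by less than the receptor sum, with ratios of 1.35 for invasive over localized and 1.32 for metastatic over localized.

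Tgfa encodes TGF-alpha, a ligand of EGFR. It lies on chromosome 6, 86195223 to 86275719, on the plus strand. Its level was 2.18 FPKM in the localized, 8.11 FPKM in the invasive and 7.46 FPKM in the metastatic library. As for Egfr, the localized library was low and the other 2 were close. The ratio was 3.72 (3.33 to 4.16) for invasive over localized and 3.42 (3.06 to 3.82) for metastatic over localized, with log2 differences of 1.52 and 1.41. For metastatic over invasive it was 0.919 (0.852 to 0.990).

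Hbegf, the heparin-binding ligand of EGFR and ERBB4, was the most abundant ligand in every library. It had 47.1 FPKM in the localized, 95.6 FPKM in the invasive and 61.6 FPKM in the metastatic library. The invasive library was the highest, and there Hbegf made up 59.6% of the ligand sum, against 39.5% (localized) and 39.3% (metastatic). The ratio was 2.03 (1.96 to 2.11) for invasive over localized, with a log2 difference of 1.01 at the edge of the size that counts. It was 1.31 (1.26 to 1.36) for metastatic over localized and 0.644 (0.623 to 0.666) for metastatic over invasive.

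Areg encodes amphiregulin, a low-affinity EGFR ligand, and was second among the ligands in all libraries. Its level was 32.6 FPKM in the localized, 33.6 FPKM in the invasive and 49.4 FPKM in the metastatic library. The localized and invasive libraries were alike, with a ratio of 1.03 (0.961 to 1.10) for invasive over localized. The metastatic library was higher, by 1.52 times (1.43 to 1.62) over the localized and 1.47 times (1.38 to 1.57) over the invasive library, which is under 2-fold.

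Ereg encodes epiregulin, a ligand of EGFR and ERBB4, and was the only member called lower in any comparison. It had 15.9 FPKM in the localized, 5.40 FPKM in the invasive and 9.47 FPKM in the metastatic library. The localized library was the highest and the invasive the lowest. For invasive over localized the ratio was 0.341 (0.315 to 0.368) and the log2 difference -1.40. For metastatic over localized these were 0.597 (0.561 to 0.635) and -0.69, and for metastatic over invasive 1.75 (1.61 to 1.91) and 0.71. An antisense gene, Gm19610, overlaps Ereg in the annotation.

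Btc encodes betacellulin, which also binds EGFR and ERBB4. Its level was 18.8 FPKM in the localized, 15.5 FPKM in the invasive and 26.9 FPKM in the metastatic library. As with Areg, the metastatic library was the highest, and no pair differed by 2-fold. Btc had its widest difference between the metastatic and invasive libraries, with a ratio of 1.73 (1.63 to 1.84).

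Nrg1 encodes neuregulin 1, the ligand of ERBB3 and ERBB4 in the set. It had 2.61 FPKM in the localized, 2.14 FPKM in the invasive and 2.02 FPKM in the metastatic library, at chromosome 8, 31814551 to 32884029, on the minus strand. Its level was slightly higher in the localized library, where its receptor Erbb3 was lowest, and the ratio was 0.820 (0.678 to 0.985) for invasive over localized and 0.773 (0.641 to 0.932) for metastatic over localized. Nrg1 has many isoforms, which the table does not separate. Of the related genes outside the set, Nrg3 was listed at 0 in all libraries, Nrg2 had 0.0824, 0.165 and 0.416 FPKM and Nrg4 0.137, 0.166 and 0.342 FPKM in the localized, invasive and metastatic libraries. Egf, the founding ligand of the family, had 0.134, 0.0688 and 0.131 FPKM in the same order.

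Epgn encodes epigen, a low-affinity EGFR ligand, and was the only member that did not pass the filter. Its level was 0.1004 FPKM in the localized, 0.0795 FPKM in the invasive and 0.0302 FPKM in the metastatic library. These values correspond to about 7, 5 and 2 fragments, too few to order the libraries. The ratio for metastatic over localized was 0.3004 with an interval of 0.0304 to 1.57.

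**Figure D2:**
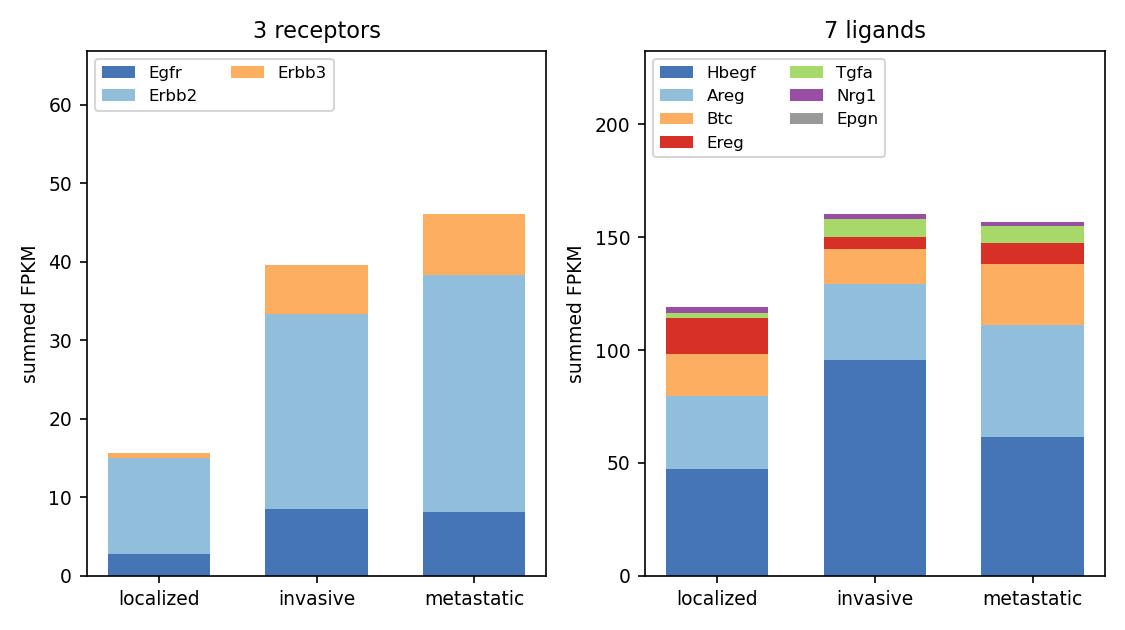
Summed FPKM of the 3 receptors (left) and the 7 ligands (right) in the localized, invasive and metastatic libraries, with each gene as a segment of the bar; there is 1 library per bar and no error bar. Receptor sums are 15.7, 39.6 and 46.1 FPKM and ligand sums 119, 160.5 and 157 FPKM from left to right.

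Counted together, 9 of the 10 genes passed the filter. In the invasive against the localized library 4 were at least 2-fold higher (Egfr, Erbb3, Hbegf and Tgfa), which is 44.4% of the 9, whereas 8.78% of all genes counted were called higher. Only Ereg was lower, 11.1% of the 9 against 6.07% of all genes. In the metastatic against the localized library 4 were higher (Egfr, Erbb2, Erbb3 and Tgfa), again 44.4%, against 9.08% of all genes, and 0 were lower, against 7.29%. Both comparisons use the same localized library. In the metastatic against the invasive library 0 members were called in either direction, where 1.33% of all genes were higher and 1.67% lower. The median log2 difference of the 9 was 0.97 (invasive minus localized), 0.59 (metastatic minus localized) and 0.27 (metastatic minus invasive). Over all genes counted these medians were -0.0014, 0.0041 and -0.0086.

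**Figure D3:**
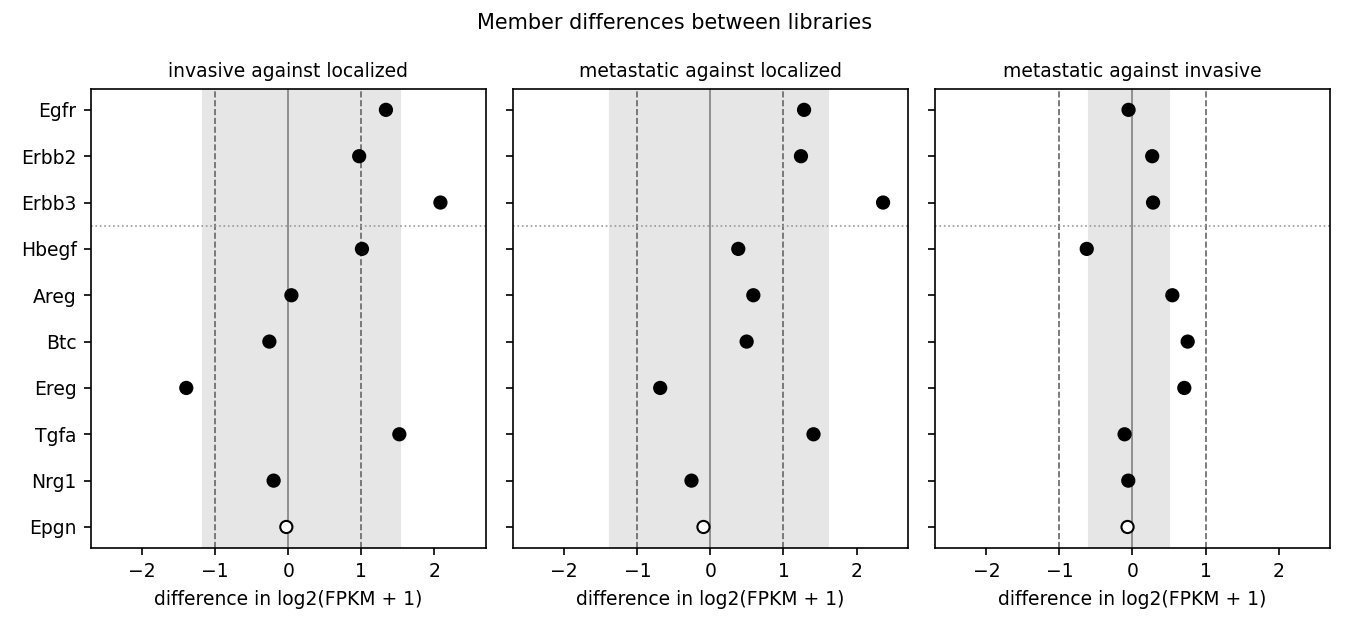
Difference in log2(FPKM + 1) of each member in the 3 comparisons. Filled points passed the filter and the open point (Epgn) did not, dashed lines mark 2-fold, and the grey band holds the central range (percentile 5 to 95) of all 11404 genes counted. Outside the band lie Erbb3 (2.08) and Ereg (-1.40) for invasive minus localized, Erbb3 (2.36) for metastatic minus localized, and Btc (0.76), Ereg (0.71), Areg (0.55) and Hbegf (-0.63) for metastatic minus invasive. No member passes 2-fold between the metastatic and invasive libraries.

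Markers of cell identity differed along with the receptors. The 8 ductal and epithelial markers summed to 1213 FPKM in the localized, 6413 FPKM in the invasive and 6909 FPKM in the metastatic library, and 6 of 8 were higher by 2-fold in the invasive and 7 of 8 in the metastatic than in the localized library, with no filter on level. The 8 fibroblast and mesenchymal markers summed to 4088, 2313 and 1861 FPKM in that order, most of it Vim, and 7 of 8 were lower in both comparisons. Of all genes counted, which passed the filter, 8.78% (invasive) and 9.08% (metastatic) were higher and 6.07% and 7.29% lower. The share of genes without the filter was not computed. Dcn (54.4, 0.0710 and 0.0142 FPKM) and Pdgfra (42.7, 1.09 and 1.97 FPKM) were near 0 or low outside the localized library. Vim (3640, 2231 and 1853 FPKM) stayed high in all libraries. The epithelial marker Sox9 (17.5, 23.3 and 11.4 FPKM) was lower in the metastatic than in the localized library. The collagen genes Col1a1 (162, 46.3 and 3.45 FPKM) and Col1a2 (177, 33.4 and 0.0833 FPKM) were lower in the invasive than in the localized library but far from 0 there. Their part in the receptor differences was not tested, and in bulk RNA fewer cells of a type and less RNA per cell cannot be told apart. The 4 Schwann cell markers, of interest for neuregulin, summed to 3.08, 0.931 and 0.286 FPKM in the localized, invasive and metastatic libraries. Most of this was S100b, with 2.6998, 0.671 and 0.0931 FPKM, and Sox10 had 0.00863 FPKM in the localized library and was listed at 0 in the other 2.

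Genes that release and mature the ligands were called in both directions. Of 16 listed, all past the filter, 2 were higher and 2 lower in the invasive against the localized library, with a median log2 difference of 0.43. These are 12.5% and 12.5% of the list, against 8.78% and 6.07% of all genes counted. In the metastatic against the localized library 3 were higher and 2 lower, with a median of 0.16. That is 18.75% and 12.5% of the list, against 9.08% and 7.29% of all genes counted. Timp3, an inhibitor of ADAM17, was the gene of the list that differed most, with 165 FPKM in the localized, 5.07 FPKM in the invasive and 8.15 FPKM in the metastatic library. It was thus high in the localized library, and its log2 difference from that library was -4.77 (invasive) and -4.18 (metastatic). Rhbdl2, a rhomboid protease that in human cells can cleave EGF precursor, had 2.99, 11.5 and 12.3 FPKM in the localized, invasive and metastatic libraries. Adam8, a metalloprotease, was the highest in the metastatic library (8.43, 15.7 and 29.8 FPKM), while Adam19, which can process neuregulin, was highest in the localized library (3.04, 0.623 and 0.0152 FPKM). Adam17 and Adam10, the main ligand sheddases, were chosen after their values were seen. They had 26.5, 30.3 and 28.9 FPKM and 55.6, 60.8 and 59.4 FPKM in the localized, invasive and metastatic libraries, with all log2 differences under 0.19 in size.

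Adaptors and direct effectors of the receptors had 3 of 19 genes higher and 0 lower in the invasive against the localized library, and 4 of 19 higher and 0 lower in the metastatic against the localized library. The higher counts are 15.8% and 21.1% of the 19, against 8.78% and 9.08% of all genes counted. Lower were 6.07% and 7.29% of all genes counted. Median differences of the list were 0.37 and 0.23. Grb7, an adaptor that binds ERBB2 and ERBB3, had 0.0296 FPKM in the localized, 24.7 FPKM in the invasive and 15.8 FPKM in the metastatic library. In localized cells it was close to the detection limit, and it differed by 4.64 and 4.03 on the log2 scale in the comparisons with it. Vav2, a guanine nucleotide exchange factor, had 4.98, 14.2 and 14.1 FPKM in the localized, invasive and metastatic libraries. Shc1, a phosphotyrosine adaptor, had 66.0, 140.2 and 159 FPKM, and the docking protein Gab2 had 1.65, 3.90 and 4.46 FPKM in the same order. The other gene of the 20 listed did not pass the filter.

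Genes that restrain or turn over the receptors had 2 of 20 higher and 1 lower in each comparison with the localized library, with medians of 0.18 for invasive and 0.08 for metastatic. These counts are 10% and 5% of the list, near the shares of all genes counted. The latter were 8.78% higher and 6.07% lower for invasive, and 9.08% higher and 7.29% lower for metastatic. Cblc, a Cbl-family ubiquitin ligase, had 0.944 FPKM in the localized, 28.7 FPKM in the invasive and 32.2 FPKM in the metastatic library. The receptor-type phosphatase Ptprj had 8.88, 26.0 and 26.2 FPKM in the same order. Both were low in the localized library, whereas Socs5, a suppressor of cytokine and EGFR signalling, was high there, with 48.7 FPKM, whereas the invasive and metastatic libraries had 17.2 and 15.6 FPKM. Cbl itself had 3.69, 7.53 and 4.83 FPKM and stayed within 2-fold on the log2(FPKM + 1) scale.

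In the RAF-MEK-ERK list of downstream kinases and scaffolds, 2 of 12 genes were higher and 0 lower in the invasive against the localized library, and 1 higher and 0 lower in the metastatic against the localized library, with medians of 0.13 and 0.11. These higher counts are 16.7% and 8.33% of the list, against 8.78% and 9.08% of all genes counted, and with a pseudocount of 0.1 the count for metastatic against localized was 2. Rps6ka1, a kinase activated by ERK, had 9.07, 49.9 and 62.4 FPKM in the localized, invasive and metastatic libraries. The scaffold Ksr1 had 3.18, 11.4 and 7.13 FPKM, and its log2 difference for metastatic against localized was 0.96, or over 2-fold as a ratio (2.24). In the PI3K-AKT list 1 of 12 was higher and 2 lower in the invasive, and 1 higher and 1 lower in the metastatic, against the localized library, with medians of -0.09 and -0.04. The higher counts are 8.33% of the list each, against 8.78% and 9.08% of all genes counted. The lower counts are 16.7% and 8.33%, against 6.07% and 7.29% of all genes counted. Without the subtraction of 0.1, 1 PI3K-AKT gene was lower in the invasive against the localized library. The phosphoinositide phosphatase Inpp4b was highest in the localized library (3.25, 0.522 and 0.169 FPKM), as was the regulatory subunit Pik3r3 (2.36, 0.668 and 1.496 FPKM). Pik3cd, a catalytic subunit, was lowest there (0.644, 2.90 and 2.64 FPKM).

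Genes that ERK signalling is known to induce, many of them feedback inhibitors, went both ways. Of 18, all past the filter, 6 were higher and 1 lower in the invasive against the localized library, with a median of 0.46. The 6 are 33.3% of the list, against 8.78% of all genes counted, and the lower gene is 5.56%, against 6.07%. In the metastatic against the localized library 4 were higher and 3 lower around a median of -0.09. That is 22.2% and 16.7% of the list, against 9.08% and 7.29% of all genes counted. Of the 4 higher genes, Spry4 and Epha4 were just past 2-fold, at 1.001 and 1.01 on the log2 scale, and without the subtraction of 0.1 the count was 2. Between the metastatic and invasive libraries 0 were higher and 1 lower, but 15 of 18 lay below 0, with a median of -0.33. Over all genes counted, 1.33% were higher and 1.67% lower there, with a median of -0.0086. Egr1, an immediate early transcription factor, was the called gene of the list, with 21.7 FPKM in the localized, 74.4 FPKM in the invasive and 2.96 FPKM in the metastatic library. It was the one gene of the list above the localized level in the invasive library and below it by 2-fold in the metastatic library. Spry1, an inhibitor of receptor tyrosine kinase signalling, had 2.33, 15.3 and 22.3 FPKM in the localized, invasive and metastatic libraries. Ier3, an early response gene, had 143, 469 and 339 FPKM, and the ephrin receptor Epha4 had 0.817, 3.81 and 2.66 FPKM, both lowest in the localized library.

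**Figure D4:**
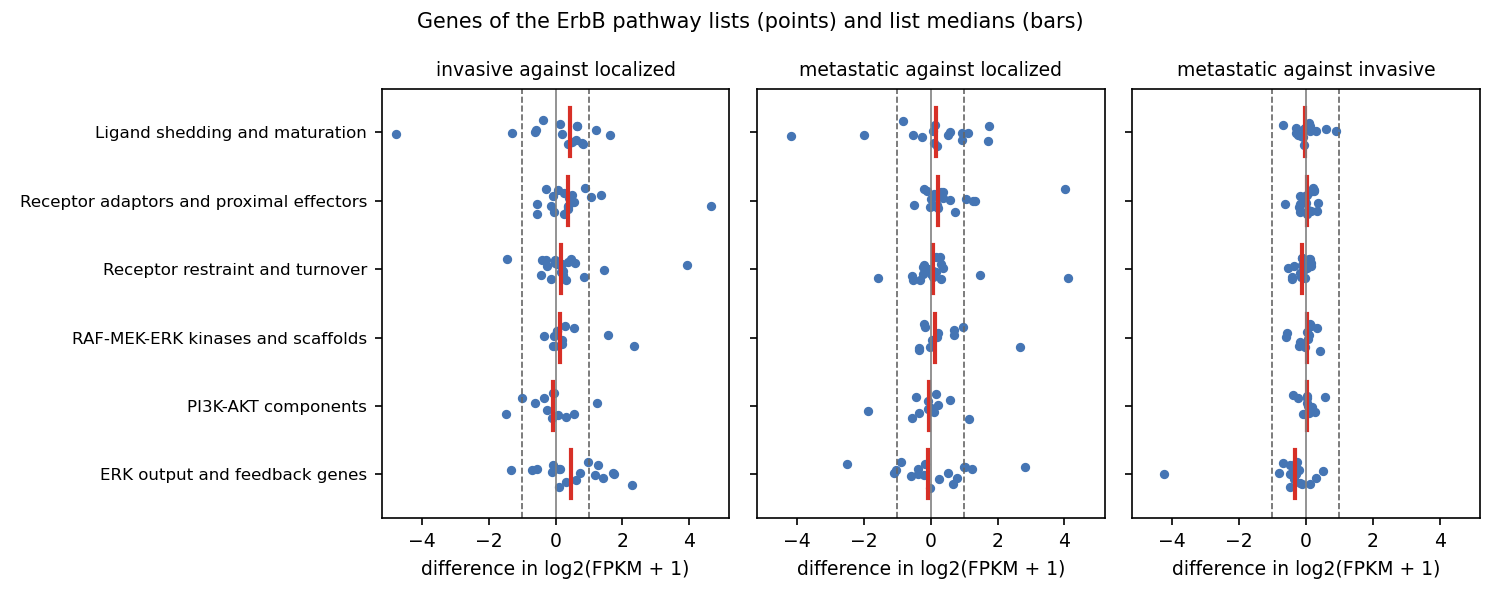
Difference in log2(FPKM + 1) of every gene past the filter in 6 lists of the ErbB pathway (blue points, with random vertical scatter) and the median of each list (red bar) in the 3 comparisons; dashed lines mark 2-fold. Medians lie within 0.46 of 0 in every panel, while single genes such as Timp3, Grb7, Cblc and Egr1 lie beyond 4 or close to it.

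Epgn, Ereg, Areg and Btc lie in this order within 376 kb of chromosome 5 (91027464 to 91402994, GRCm38), the first 3 on the plus and Btc on the minus strand. Epgn spans 91027464 to 91035215, Ereg 91074622 to 91093646, Areg 91139599 to 91148432 and Btc 91357261 to 91402994. Although adjacent, the genes differed in level by orders of magnitude: Areg was 325 times as abundant as Epgn per length in the localized, 422 times in the invasive and 1640 times in the metastatic library, the last against about 2 Epgn fragments. Areg was 2.05 times as abundant as Ereg in the localized, 6.21 times in the invasive and 5.22 times in the metastatic library. None of the 4 was called higher against the localized library. Of the 12 other coding genes of the table within 500 kb of the cluster, 9 passed the filter. Of these 6 were higher and 0 lower in each comparison with the localized library, with medians of 1.92 for invasive and 1.86 for metastatic. Of all genes counted, 8.78% were higher and 6.07% lower for invasive, and 9.08% higher and 7.29% lower for metastatic. Parm1, a mucin-like membrane protein, had 0.424 FPKM in the localized, 32.4 FPKM in the invasive and 47.1 FPKM in the metastatic library. The platelet-type chemokines Ppbp (0.631, 20.95 and 45.9 FPKM) and Pf4 (0.161, 5.65 and 9.80 FPKM) were likewise low in the localized library. They belong to a family of similar chemokine genes.

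Around Erbb2, 22 of 33 coding neighbours within 500 kb passed the filter, of which 4 were higher and 1 lower in each comparison with the localized library. Higher were 8.78% (invasive) and 9.08% (metastatic) of all genes counted, and lower 6.07% and 7.29%. The medians of the 22 neighbours were 0.20 for invasive and 0.13 for metastatic. The 4 higher neighbours were Grb7, Ppp1r1b, Stard3 and Csf3. The lower neighbour was Stac2, also chosen after its values were seen, with 15.1, 1.81 and 0.681 FPKM in the localized, invasive and metastatic libraries. Grb7, whose start lies 33.9 kb downstream of that of Erbb2, is described above among the adaptors. Ppp1r1b, a protein phosphatase inhibitor, had 0.956, 137 and 121 FPKM in the localized, invasive and metastatic libraries. Csf3, the granulocyte colony-stimulating factor, had 0.757, 147 and 88.3 FPKM. Stard3, a cholesterol-binding protein chosen after its values were seen, had 14.0, 31.9 and 36.5 FPKM. Pgap3 (2.85, 3.96 and 4.64 FPKM) and Mien1, which lie closest to Erbb2 among the neighbours past the filter, stayed within 2-fold, both chosen after their values were seen.

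**Figure D5:**
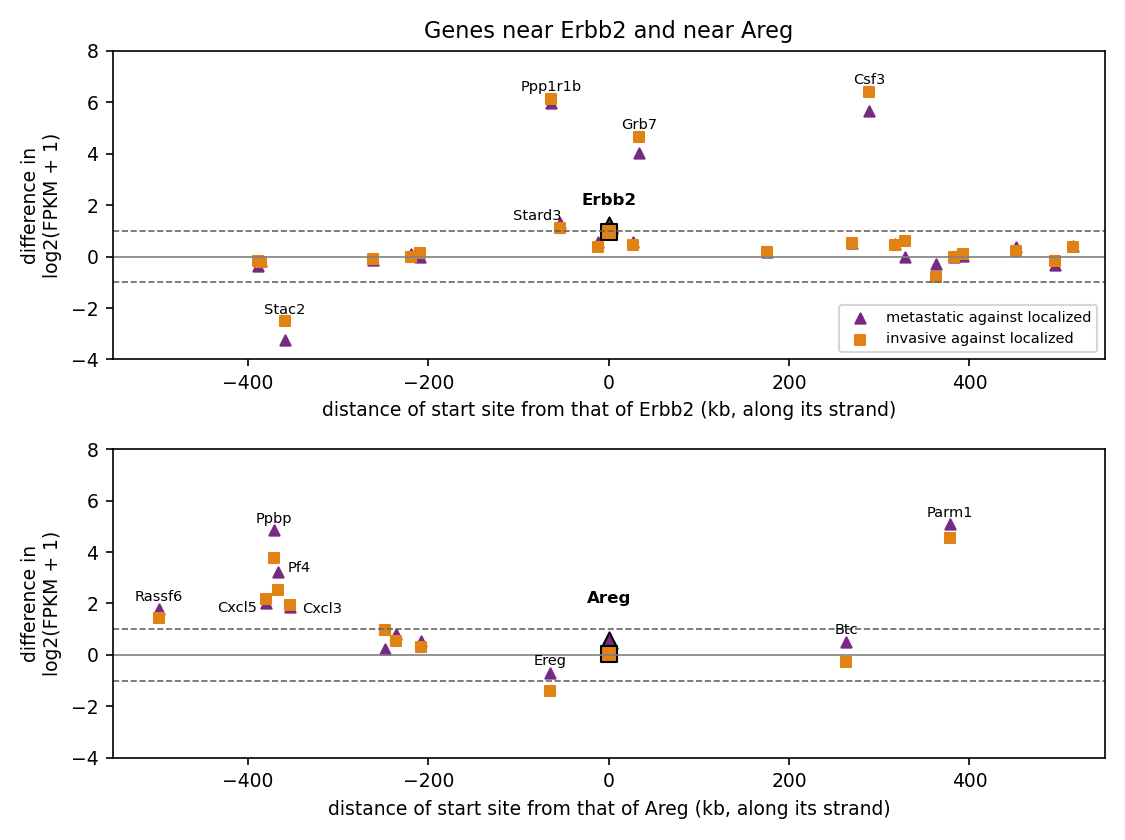
Difference in log2(FPKM + 1) against the localized library for coding genes past the filter within 500 kb of Erbb2 (top) and Areg (bottom), by the distance of their start site in kb; triangles are metastatic, squares invasive, and the outlined points at 0 are Erbb2 and Areg themselves. Erbb2 (0.97 and 1.24) sits between genes near 0 and the far larger differences of Ppp1r1b, Grb7 and Csf3, while Stac2 is lower (-2.52 and -3.26). The ligand genes Ereg, Areg and Btc lie below Ppbp and Parm1.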

How the data were processed

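Per the labels' protocols, Trizol was used for RNA and a TruSeq RNA kit, with 1 ug input, for the libraries. The authors deposited 1 table of FPKM per gene and library; STAR 2.5.2a, FastQC 0.11.2, Cufflinks 2.2.1 and GRCm38 are named per the submitters' processing notes, without role or order. The lowest deposited value was exactly 0.1 in every column, so 0.1 was subtracted. Of 22784 entries, 27 with a spreadsheet date number for a name were left out, and 20 short or ribosomal RNAs were left out of counts. Differences are in log2(FPKM + 1), called at 2-fold over genes with a mean of at least 1 FPKM. With 1 library per group no p-value was computed.

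The table gives no counts. In single-transcript genes (lengths from GENCODE M21, GRCm38), FPKM times length came within 0.15 of whole fragments for 82.8% to 86.3% of low values at the best-fitting depth, which gave the estimated fragments. Intervals are exact (Clopper-Pearson) 95% intervals of the ratio of estimated fragments, with the shortest CCDS transcript as length; reads without molecular identifiers are not independent molecules. The calls and the depth estimate were tested on simulated data. There, changes were 4-fold, values varied by counting error only, and fragments were whole at the annotated lengths by construction. Calls near 2-fold and variation between cultures were not tested. Neighbours were coding genes within 500 kb.

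The members and lists were chosen with earlier results of these data known. All members are named, with up to 4 genes per list and 3 per locus by largest difference; others are marked. Promoter motifs were picked with the sequences in view. The alternatives were another pseudocount, no subtraction, other scalings, filters and fold sizes. Part of the genotype label is not reported here. Python 3.11.15, numpy 2.4.6, pandas 2.3.3 and scipy 1.17.1 were used.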

Additional observations from a re-analysis of the deposited data

How the results depend on the processing

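The 6 counts of members called higher or lower were recomputed under 8 alternatives, and 42 of the 48 values were within 1.5 times of the main count. The other 6 came from the size of difference that counts. At 4-fold, 1 member (main count 4) was higher in the invasive and 1 (main count 4) in the metastatic against the localized library, and 0 (main count 1) were lower in the invasive against the localized library. At 1.5-fold, 1 member was lower in the metastatic against the localized library, and 2 were higher and 1 lower in the metastatic against the invasive library (main count 0 for each). A pseudocount or a subtracted constant cannot change the sign of a difference, and the scaling factors were all 0.990 to 1.008, so signs are not informative. Over another pseudocount, no subtraction and both scalings, 113 of 120 member log2 differences shifted by less than their counting interval reaches to 1 side. The other 7 shifted by more. At a pseudocount of 0.1 Erbb3 had 2.96 in place of 2.08 (invasive minus localized) and 3.27 in place of 2.36 (metastatic minus localized). Erbb2 in the invasive against the localized library was the only member whose call changed under these alternatives, with 1.02 at a pseudocount of 0.1 and 0.97 at 1. Counts of pathway lists moved by over 1.5 times in 30 of 84 values under other fold sizes and in 6 of 252 under the remaining alternatives. Both scalings left the median of all genes within 0.1 of 0. No paired analysis was possible because each stage has 1 library, and for the same reason no library could be left out. Depth limits Epgn, with about 7, 5 and 2 fragments in the localized, invasive and metastatic libraries.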

Other observations

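At the loci of Egfr, Erbb3, Tgfa and Nrg1 most neighbours past the filter within 500 kb stayed within 2-fold in both comparisons with the localized library. So did most of all genes counted. Of those, 8.78% were higher and 6.07% lower in the invasive, and 9.08% higher and 7.29% lower in the metastatic, against the localized library. The Hbegf locus was not analysed here. Around Egfr, 6 of 9 coding neighbours passed the filter and 1 was higher in each comparison with the localized library: Wdr92, with 18.9 FPKM in the localized, 99.4 FPKM in the invasive and 129 FPKM in the metastatic library. Around Erbb3, 35 of 49 passed. Of these, 2 were higher and 2 lower in the invasive, and 3 higher and 2 lower in the metastatic, against the localized library. The metalloprotease Mmp19 had 7.51, 1.01 and 1.57 FPKM in the localized, invasive and metastatic libraries, the interferon signalling factor Stat2 had 20.6, 7.74 and 5.32 FPKM, and the diacylglycerol kinase Dgka had 5.65, 20.8 and 21.8 FPKM. Around Tgfa, 14 of 17 passed, with 1 higher in the invasive and 2 in the metastatic against the localized library and 0 lower in either. Add2, a membrane skeleton protein, had 2.196, 7.55 and 4.95 FPKM, and the calcium-binding annexin Anxa4 had 137, 242 and 282 FPKM. Mxd1 had 1.62, 2.97 and 4.65 FPKM in the localized, invasive and metastatic libraries. Nrg1 had 1 such neighbour, Wrn, a helicase, with 4.36, 5.91 and 6.38 FPKM.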
